A study of Mus musculus with 12 samples.

Results

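Arterial endothelial genes were followed by genotype in the liver and the lung of newborn mice that lack *Man1a2*. The set was named by gene symbol and holds 10 genes: the connexins *Gja4* and *Gja5*, the SOXF transcription factors *Sox7*, *Sox17* and *Sox18*, the Notch ligand *Dll4*, the receptor *Notch1* and its target *Hey1*, the ephrin *Efnb2* and the kinase *Bmx*. Counts were found for 9 of the 10 among 24421 gene symbols, and *Sox17* was not analysed here. The set was chosen by the lower *Gja5* level of both null tissues, so the *Gja5* genotype differences below are descriptions without a test. The other 8 genes were tested.

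WT (Man1a2+/+) and null (Man1a2-/-) pups came from matings of Man1a2+/- mice that carry the Man1a2tm1.1Ahe allele, in which exon 2 is deleted. The deletion is constitutive, so it is not limited to endothelium. Pups of both genotypes were harvested within 30 to 60 minutes of birth with no treatment named, and null pups are known to die of respiratory failure. Liver and lung tissue was sequenced in bulk, as 12 libraries, 3 from each combination of genotype and organ. The strain background and the litter of each pup were not given in the sources used here. Liver and lung of a given number and genotype varied together, so they may come from 1 pup. Nothing more is said of how libraries of a group are related, so p-values measure only the spread between these libraries, which may be technical in part.

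Arteries and veins are lined by the same kind of cell with different gene programs. In arterial endothelium, VEGF signalling and SOXF factors raise the ligand *Dll4* and the receptor *Notch1*, and cleaved Notch then acts with RBPJ on targets such as *Hey1* and *Efnb2*. Arterial cells are joined end to end by gap junctions made of connexin 37 (*Gja4*) and connexin 40 (*Gja5*), both of which respond to blood flow. Connexin 40 is also made by atrial heart muscle and by the conduction system of the heart.

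The sequences just upstream of both connexins are shown because the 2 genes serve the same cells. Their mean levels in null liver lay on opposite sides of WT, but the *Gja4* ranges overlapped and its difference did not pass the test. In lung both genes had a lower mean in null. Whether these sequences bear on the levels was not tested. Each run is the 250 bases before the RefSeq start, read 5′ to 3′ on the strand of the gene in GRCm38.p6. *Gja5* lies on the plus strand at chr3:97032152-97032401 and *Gja4* on the minus strand at chr4:127314040-127314289. Neither window overlaps a GENCODE exon, although the *Gja5* window lies within the longer *Gja5* gene model of that annotation. Capitals mark the SOX core ACAAT.
Gja5: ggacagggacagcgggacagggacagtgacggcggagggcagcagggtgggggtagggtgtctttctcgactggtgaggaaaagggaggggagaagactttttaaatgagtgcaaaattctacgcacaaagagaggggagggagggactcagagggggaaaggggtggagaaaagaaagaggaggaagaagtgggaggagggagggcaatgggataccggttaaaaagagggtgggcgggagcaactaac
Gja4: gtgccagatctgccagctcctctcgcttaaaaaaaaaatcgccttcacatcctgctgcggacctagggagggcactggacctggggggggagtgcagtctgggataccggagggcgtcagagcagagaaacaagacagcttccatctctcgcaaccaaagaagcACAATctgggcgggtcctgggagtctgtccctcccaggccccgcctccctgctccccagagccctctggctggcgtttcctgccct
ACAAT was found once upstream of *Gja4*, with its first letter 86 bases before the start, and was not found upstream of *Gja5*. Other sequences that SOX factors may bind were not searched, so *Gja5* may still hold such a site. The RBPJ core TGGGAA was found in neither. Both cores were searched on both strands. Among 32817 RefSeq promoter windows of this length, 27.7% held ACAAT and 21.6% held TGGGAA. Windows were found for 6 of the 10 genes, of which *Gja4* and *Bmx* held ACAAT and *Bmx* alone held TGGGAA.

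Libraries held 26759463 to 42914295 counted reads, and 3 reads correspond to 0.0699 to 0.112 CPM (counts per 1000000 counted reads, scaled by TMM factors within each tissue). *Man1a2* itself, checked first, averaged 53.5 ± 13.4 CPM in the WT livers against 38.6 ± 1.77 CPM in the null livers (SD, n = 3 each), and 126 ± 22.9 CPM in the WT lungs against 62.4 ± 5.06 CPM in the null lungs. The ranges did not overlap in either tissue, and the log2 fold changes were -0.47 (adjusted p = 0.0809, edgeR) and -1.01 (adjusted p = 0.0614). Without the library labelled null lung 1 it was called in lung (-0.95, adjusted p = 0.00430), and DESeq2 called it in both tissues (adjusted p = 0.0473 and 0.000287). The deletion removes a single exon, so reads from the other exons remain. Summed markers of lung epithelium reached 24925 to 33853 CPM in 5 of the lung libraries, and those of hepatocytes reached 107162 to 176645 CPM in all 6 liver libraries.

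The library labelled null lung 1 went against its label. Its lung epithelial markers summed to 389 CPM and its endothelial markers to 1711 CPM, against 3996 to 4979 CPM for endothelial markers in the other lung libraries. Its 12 heart muscle markers summed to 26984 CPM, against 413 to 648 CPM in the WT lungs and 1075 and 841 CPM in null lungs 2 and 3. Its 8 skeletal muscle markers summed to 12972 CPM, against 24.2 to 32.0 CPM and 72.1 and 56.6 CPM. All 12 and all 8 of these markers were detected. Null lungs 2 and 3 thus also held more muscle RNA than the WT lungs. Without null lung 1, 8 of 11 heart and 4 of 6 skeletal markers tested were called higher in null lung (edgeR). None was lower, beside 18.0% of all genes called higher. The library labelled null liver 1 held 5891 CPM of skeletal muscle markers and 550 CPM of heart markers, against at most 7.82 and 15.7 CPM in the other livers, while its hepatocyte markers were at 134771 CPM. Lung results are therefore given with and without null lung 1, and liver results with and without null liver 1 where that changes them. Sex markers put WT 1, null 1 and null 2 as female and the others as male in both tissues, so the genotypes also differ in sex ratio.

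**Figure D1:**
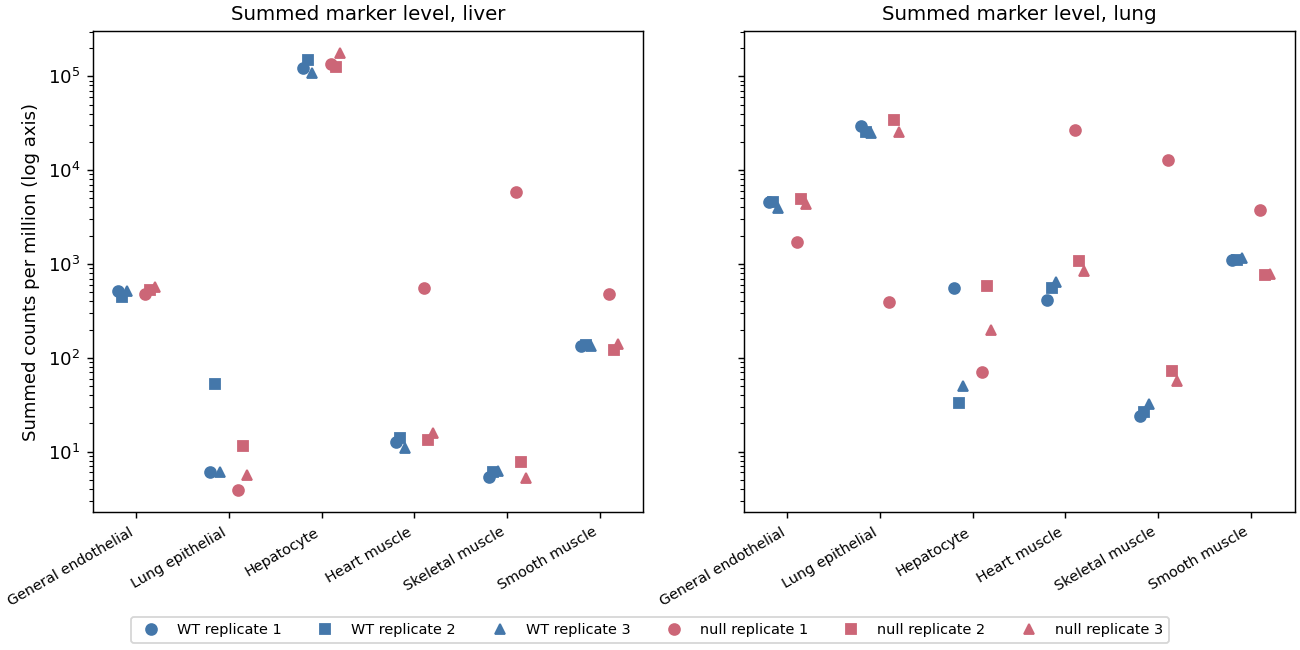
Summed CPM of marker genes (log axis) for 6 cell types in each of the 12 libraries, with WT in blue, null in red and the replicate number as the symbol. The library labelled null lung 1 stands at 389 CPM for lung epithelial markers and 26984 CPM for heart muscle markers, apart from the other 5 lung libraries.

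In WT mice every one of the 9 genes was higher in lung than in liver, with CPM scaled over the 6 WT libraries together. All 9 passed the test in that direction (edgeR quasi-likelihood test, adjusted p under 0.05 and at least 1.2-fold), beside 39.8% of all genes tested that were higher in lung, 37.2% that were lower and 77.0% called in all. *Hey1*, which encodes a repressor downstream of Notch, rose most between the tissues, from 1.68 ± 0.521 to 53.2 ± 9.46 CPM (SD, n = 3 each, log2 fold change 5.0, SE 0.21, adjusted p = 4.09e-08). *Efnb2*, the ligand that marks arteries against the EphB4 of veins, rose from 6.91 ± 0.603 to 170 ± 20.5 CPM (4.61, SE 0.13, adjusted p = 5.52e-09). *Bmx*, a Tec-family kinase of arterial endothelium, differed least, at 2.24 ± 0.234 and 5.11 ± 0.803 CPM (1.18, SE 0.19, adjusted p = 0.000342). Log2 fold changes of the other 6 lay between 1.48 for *Notch1* and 3.64 for *Gja4*, and that of *Gja5* was 3.52. Fewer endothelial cells and less RNA per cell cannot be told apart in bulk tissue.

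Per kilobase of exon, on the same scale, *Sox18* was the most abundant of the 9 in both WT tissues, at 6.84 ± 1.33 CPM per kb in liver and 48.2 ± 5.90 in lung. In liver it was followed by *Dll4*, *Gja4* and *Notch1* (2.42, 2.17 and 2.17 CPM per kb), whose ranges overlapped one another in that order. *Efnb2*, *Sox7*, *Gja5*, *Bmx* and *Hey1* came below them, from 1.01 down to 0.513 CPM per kb, and each overlapped the next. In lung, *Gja4* and *Efnb2* overlapped at 27.3 and 24.7 CPM per kb, *Hey1* and *Dll4* at 16.3 and 13.8, and *Sox7* and *Gja5* at 9.49 and 8.59. *Notch1* at 6.04 and *Bmx* at 1.65 CPM per kb stood below all of these. *Gja5* was thus the seventh in the order of both tissues, below its sister connexin by a range that did not overlap.

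**Figure D2:**
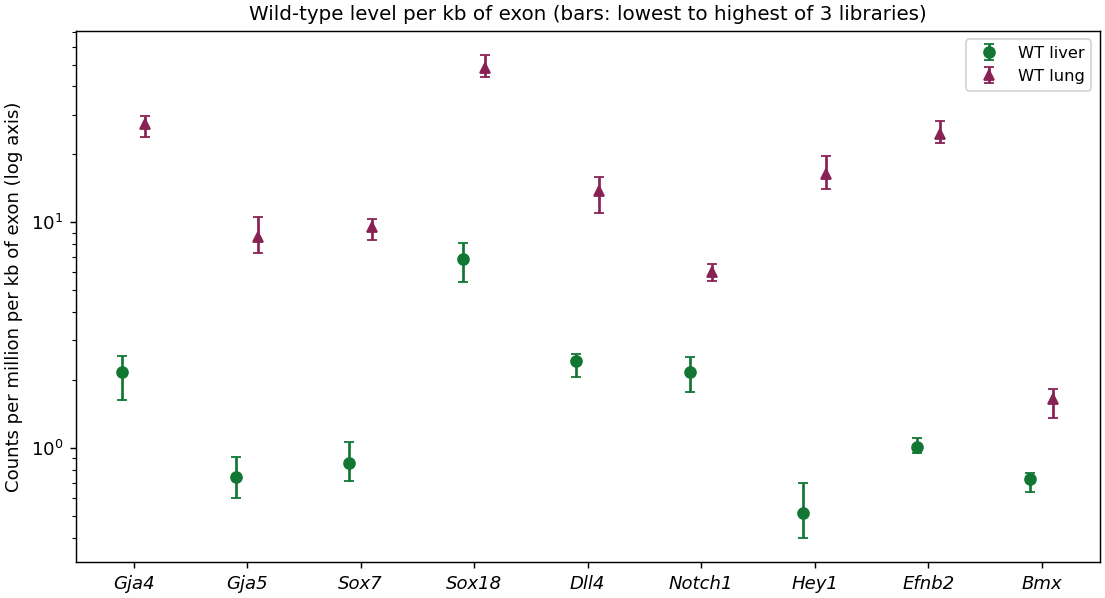
Mean level per kilobase of exon (log axis) of the 9 genes in WT liver (circles) and WT lung (triangles), with bars from the lowest to the highest of 3 libraries. Every gene is higher in lung, and *Gja5* stands at 0.743 in liver and 8.59 in lung.

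*Gja5*, which encodes connexin 40, was at 3.85, 2.48 and 2.99 CPM in the WT livers and at 1.02, 0.374 and 0.162 CPM in the null livers, numbered 1 to 3. All 3 null livers lay below all 3 WT livers. Null liver 1, the library with muscle markers, was the highest of the null livers. Null livers held 36, 14 and 5 reads of the gene, so the null level is close to what these depths can measure. The WT mean of 3.10 ± 0.692 CPM exceeded the null mean of 0.519 ± 0.448 CPM (SD, n = 3 each). The fitted difference was 5.90-fold, a log2 fold change of -2.56 (SE 0.56), and of -3.48 without null liver 1.

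In lung, *Gja5* stood at 57.1, 53.1 and 76.2 CPM in WT and at 40.6, 4.70 and 4.26 CPM in null. Null lungs 2 and 3 were far below every WT lung, and the library labelled null lung 1, with its heart and skeletal muscle markers, lay much nearer to WT. With all 6 libraries the log2 fold change was -1.92 (SE 0.92). Without null lung 1 it was -3.79 (SE 0.20), or 13.86-fold lower, with a null mean of 4.48 CPM. The size of the difference in lung turns on a library whose defining lung markers are nearly absent, and the part of heart muscle in its *Gja5* level was not tested.

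*Gja4*, which encodes connexin 37, had a higher mean in null than in WT liver, where that of *Gja5* was lower. It was at 3.14, 1.98 and 2.85 CPM in WT and at 3.72, 3.04 and 7.32 CPM in null liver. The ranges overlapped, null liver 3 was the highest, and the log2 fold change of 0.82 (SE 0.36) did not pass the test (adjusted p = 0.131, edgeR). Without null liver 3 the log2 fold change was 0.35. Null liver 3 had the highest *Gja4* and the lowest *Gja5* of the 6 livers. Over the 12 libraries, with the mean of each tissue removed, the Pearson correlation of the 2 genes was only -0.17. In lung, *Gja4* was at 62.3, 60.6 and 50.7 CPM in WT and at 19.5, 32.5 and 58.4 CPM in null. Null lungs spread widely and reached the WT values, and the log2 fold change was -0.65 (SE 0.39, adjusted p = 0.336), or -0.35 (SE 0.23, adjusted p = 0.272) without null lung 1.

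**Figure D3:**
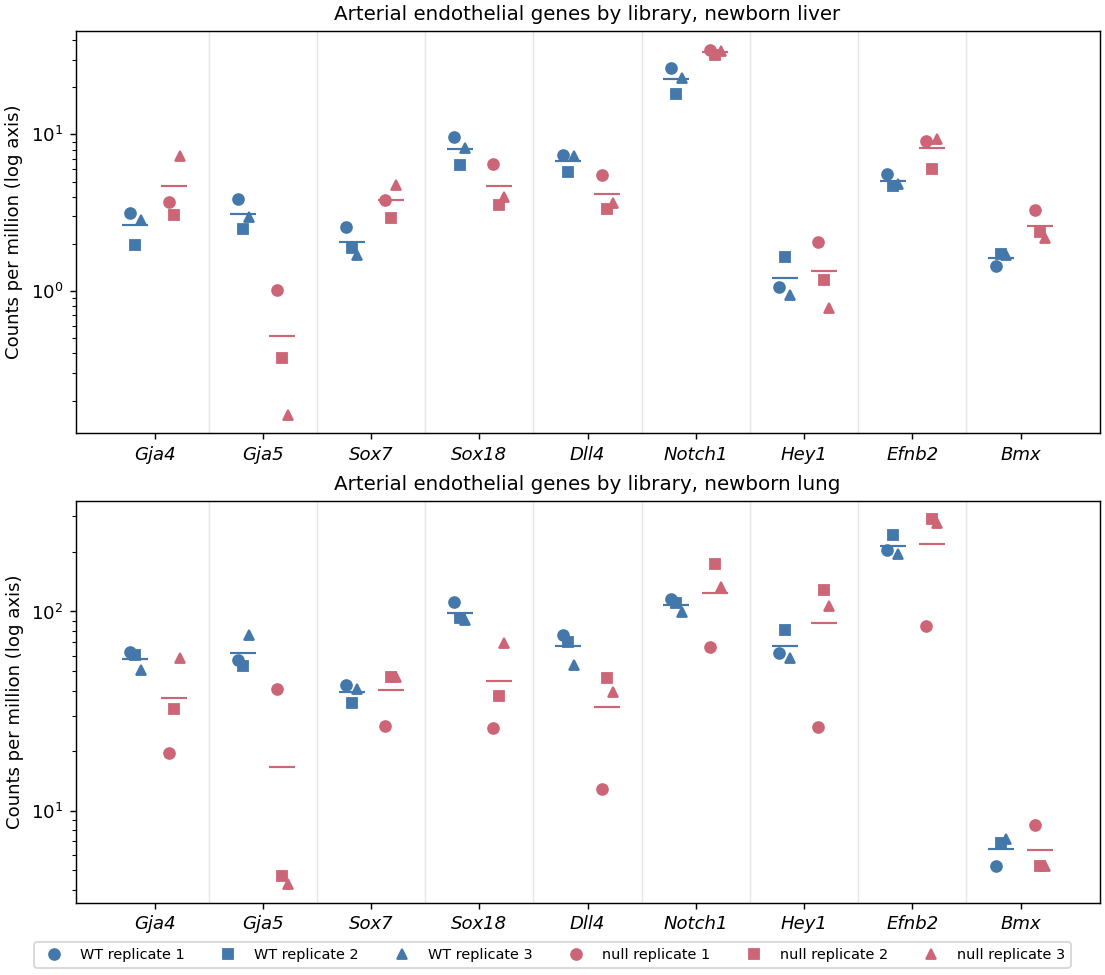
CPM (log axes) of the 9 genes in each library of liver (top) and lung (bottom), with WT in blue, null in red, the replicate number as the symbol and a line at the mean of 3. *Gja5* of null lungs 2 and 3 is at 4.70 and 4.26 CPM, and the library labelled null lung 1 is at 40.6 CPM.

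The SOXF factors act together in arterial and lymphatic endothelium and can stand in for one another. *Sox18* was at 9.58, 6.35 and 8.22 CPM in WT and at 6.44, 3.55 and 3.99 CPM in null liver. Null livers 2 and 3 lay below every WT liver, and null liver 1 just reached the lowest of them. The log2 fold change of -0.79 (SE 0.27) did not pass the test (adjusted p = 0.0644, edgeR), and passed without null liver 1 at -1.09 (adjusted p = 0.0129). In lung, *Sox18* was at 111, 92.9 and 90.4 CPM in WT and at 26.0, 37.8 and 69.7 CPM in null. All 3 null lungs were below all 3 WT lungs, with null lung 1 the lowest. The log2 fold change was -1.14 (SE 0.36, adjusted p = 0.137), and -0.87 (SE 0.24, adjusted p = 0.0265) without null lung 1, where the gene passed the test.

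*Sox7* moved the other way in liver. It was at 2.56, 1.89 and 1.70 CPM in WT and at 3.80, 2.91 and 4.73 CPM in null liver. Every null liver was above every WT liver, and *Sox7* rose by a log2 fold change of 0.89 (SE 0.27, adjusted p = 0.0428, edgeR). The call was close to the threshold and was lost without any of WT liver 1, 2 or 3 (adjusted p = 0.0575, 0.122 and 0.145), null liver 1 (0.0584) or null liver 3 (0.105), with log2 fold changes from 0.71 to 1.08. It was also lost when all 12 libraries were fitted together (adjusted p = 0.0542). In lung, *Sox7* was at 42.6, 34.8 and 40.8 CPM in WT and at 26.6, 47.1 and 47.1 CPM in null. Null lungs 2 and 3 were above the WT lungs and null lung 1 was below them. The log2 fold change was 0.03 (SE 0.25, adjusted p = 0.947), and 0.26 (SE 0.12, adjusted p = 0.124) without null lung 1.

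Of the Notch genes, the ligand *Dll4* had a lower mean and the receptor *Notch1* a higher mean in both null tissues. *Dll4* was at 7.34, 5.76 and 7.26 CPM in WT and at 5.50, 3.34 and 3.66 CPM in null liver. The ranges did not overlap, but the log2 fold change of -0.70 (SE 0.23) missed the threshold (adjusted p = 0.0594, edgeR). It passed without null liver 1, at -0.95 (adjusted p = 0.0142). In lung, *Dll4* was at 76.3, 70.3 and 53.6 CPM in WT and at 12.8, 46.5 and 39.5 CPM in null. All null lungs lay below the WT lungs, null lung 1 by far the most. The log2 fold change was -1.02 (SE 0.46, adjusted p = 0.234), and without null lung 1 *Dll4* fell by 0.63 on the log2 scale (SE 0.17, adjusted p = 0.0215).

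*Notch1* was at 26.4, 18.1 and 22.8 CPM in WT and at 34.8, 32.2 and 33.9 CPM in null liver. The null livers were close together and above all WT livers, and *Notch1* rose by a log2 fold change of 0.59 (SE 0.14, adjusted p = 0.0214, edgeR). The call was lost without WT liver 3 (0.60, adjusted p = 0.0760) and when all 12 libraries were fitted together (adjusted p = 0.204). In lung, *Notch1* was at 116, 110 and 99.0 CPM in WT and at 66.5, 174 and 133 CPM in null. Null lungs 2 and 3 were above every WT lung and null lung 1 below. Its log2 fold change in lung was 0.20 (SE 0.34, adjusted p = 0.739), and 0.51 (SE 0.13, adjusted p = 0.0227) without null lung 1.

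*Hey1* was at 1.06, 1.64 and 0.943 CPM in WT and at 2.07, 1.17 and 0.778 CPM in null liver, with ranges that overlapped. Its log2 fold change in liver was 0.15 (SE 0.41, adjusted p = 0.807, edgeR), and -0.30 without null liver 1. In lung, *Hey1* was at 62.1, 80.7 and 58.2 CPM in WT and at 26.2, 128 and 107 CPM in null. Null lungs 2 and 3 were the highest of the 6 and null lung 1 was the lowest. In lung its log2 fold change was 0.38 (SE 0.54, adjusted p = 0.696), and without null lung 1 *Hey1* rose by 0.81 (SE 0.16, adjusted p = 0.00736).

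*Efnb2* was at 5.57, 4.68 and 4.82 CPM in WT and at 9.13, 6.03 and 9.36 CPM in null liver. All null livers were above all WT livers, and *Efnb2* rose by a log2 fold change of 0.70 (SE 0.21, adjusted p = 0.0419, edgeR). The call was lost without any of WT liver 1, 2 or 3 (adjusted p = 0.0814, 0.116 and 0.129), null liver 1 (0.0835) or null liver 3 (0.0988), with log2 fold changes from 0.60 to 0.78. Fitting all 12 libraries together also ended it (adjusted p = 0.261). In lung, *Efnb2* was at 203, 243 and 194 CPM in WT and at 84.8, 292 and 278 CPM in null. Null lungs 2 and 3 exceeded every WT lung and null lung 1 lay below them all. With all 6 lungs the log2 fold change was 0.03 (SE 0.45, adjusted p = 0.974), and 0.42 (SE 0.12, adjusted p = 0.0319) without null lung 1.

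*Bmx* was at 1.45, 1.73 and 1.70 CPM in WT and at 3.29, 2.40 and 2.17 CPM in null liver. The ranges did not overlap, and the log2 fold change of 0.69 (SE 0.24) missed the threshold (adjusted p = 0.0699, edgeR). In lung, *Bmx* was at 5.24, 6.90 and 7.17 CPM in WT and at 8.45, 5.27 and 5.26 CPM in null. Null lung 1 was the highest of the 6 lungs, whereas *Gja4*, *Sox7*, *Sox18*, *Dll4*, *Notch1*, *Hey1* and *Efnb2* were lowest there. With all 6 lungs its log2 fold change was -0.02 (SE 0.29, adjusted p = 0.966), and -0.29 (SE 0.21, adjusted p = 0.306) without null lung 1.

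**Figure D4:**
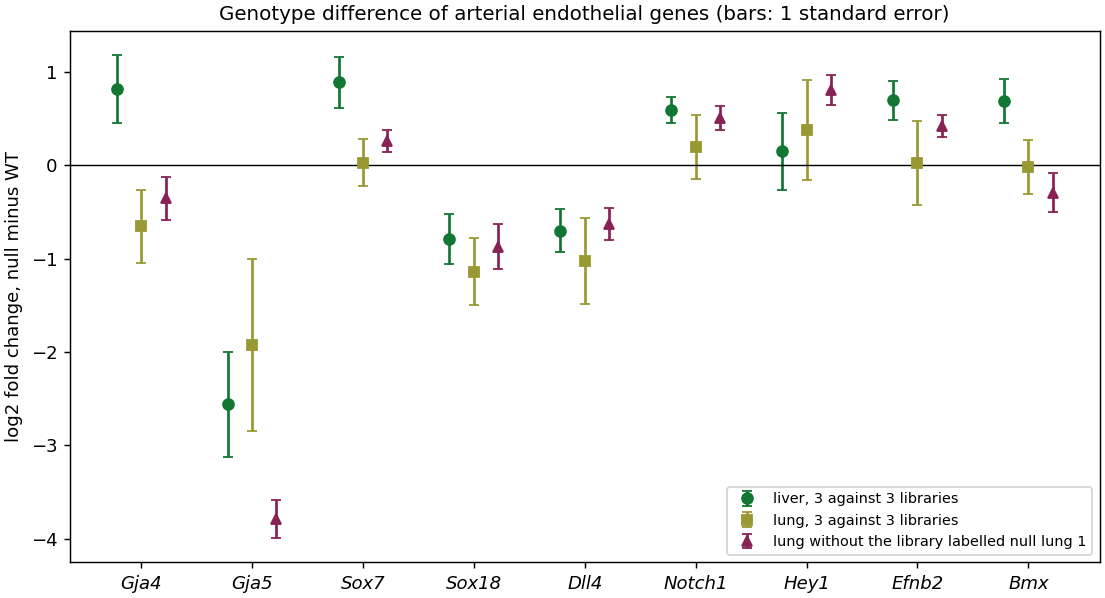
Log2 fold change (null minus WT) with 1 standard error for the 9 genes in liver, in lung with 6 libraries and in lung without the library labelled null lung 1. *Gja5* has the lowest value in each set (-2.56, -1.92 and -3.79), *Sox18* and *Dll4* are below 0 in each, and *Notch1* is above 0 in each.

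Counted over the 8 tested genes, 3 were called in liver, all higher in null (*Sox7*, *Notch1* and *Efnb2*). Among all genes tested in liver 26.9% were called, 13.5% higher and 13.4% lower, so 3 of 8 is near the share of all genes. The count fell to 1 without WT liver 1, WT liver 2 or null liver 3, and to 0 without WT liver 3. Without null liver 1 the count was again 3 of 8, with *Notch1* higher (log2 fold change 0.56, adjusted p = 0.0427, edgeR) and *Sox18* and *Dll4* lower, beside 23.8% of all genes (11.9% higher, 11.9% lower). With all 6 lungs, 0 of the 8 were called by edgeR, and 0.327% of all genes were called (0.0898% higher, 0.237% lower). *Sox18* alone of these genes had an unadjusted p under 0.05, and DESeq2 called it (adjusted p = 0.0473). Without null lung 1, 5 of 8 were called, with *Hey1*, *Notch1* and *Efnb2* higher and *Sox18* and *Dll4* lower, beside 37.0% of all genes (18.0% higher, 19.0% lower).

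The genotype effect was then compared between tissues as an interaction over all 12 libraries, given as lung minus liver. None of the 8 genes was called by edgeR, beside 0.371% of all genes. *Gja4* (-1.47, SE 0.57, adjusted p = 0.295) and *Sox7* (-0.86, SE 0.37, adjusted p = 0.336) had an unadjusted p under 0.05, beside 13.9% of all genes. When null lung 1 was left out and the pup was kept as a block, *Gja4* (-1.24, SE 0.26, adjusted p = 0.0326) and *Hey1* (1.12, SE 0.23, adjusted p = 0.0297) were called, beside 5.77% of all genes. Neither was called with null lung 1 left out alone (adjusted p = 0.202 and 0.401, edgeR), with the pup block alone (0.169 and 1.0) or without null lung 1 and null liver 1 (0.145 and 0.112). That block assumes that the liver and lung of a number come from 1 pup. The *Gja5* difference between tissues was 0.62 (SE 1.17), and -1.21 (SE 0.59) without null lung 1, so its sign rests on that library.

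Because the amount of endothelial RNA varied between libraries, each gene was also set against 18 general endothelial markers. The measure was log2(CPM + 0.5) of the gene minus the mean of the same quantity over the markers. That mean was 4.33 to 4.63 in the livers, 7.41 to 7.58 in 5 lungs and 6.18 in null lung 1. *Gja5* stood at -2.34, -2.76 and -2.68 in WT and at -3.74, -4.69 and -5.22 in null liver. In lung it stood at -1.71, -1.80 and -1.15 in WT and at -0.82, -5.20 and -5.18 in null. The library labelled null lung 1 had the highest *Gja5* per endothelial marker of all 6 lungs, and the other null lungs had the lowest.

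Relative to these markers, *Dll4* was lower and *Notch1* and *Sox7* were higher in null in both tissues, with no overlap between genotypes. The lung values and tests include null lung 1, whose lung epithelial markers were nearly absent. *Dll4* differed by -0.73 in liver and -0.74 in lung, *Notch1* by 0.53 and 0.54, and *Sox7* by 0.69 and 0.43 (log2, exact permutation p = 0.10 for each, two-sided). With 3 libraries against 3 this is the smallest p the test allows, so none could reach 0.05. *Efnb2* was also higher without overlap in liver (0.57), and *Sox18* lower without overlap in lung (-0.80), each at an exact permutation p of 0.10. In all, 4 of the 8 did not overlap in liver, beside 41.5% of all genes, and 4 of 8 in lung, beside 28.6% of all genes. Without null lung 1, 6 of 8 did not overlap in lung, beside 56.8% of all genes. *Dll4*, *Notch1* and *Sox7* were among them, with lung differences of -0.62, 0.49 and 0.26. When the markers were replaced by *Pecam1* and *Cdh5* alone, 2 of 8 did not overlap in liver, beside 66.4% of all genes. These were *Dll4* and *Sox18*, lower in null, while *Notch1*, *Sox7* and *Efnb2* then overlapped between genotypes. *Pecam1* and *Cdh5* were themselves called higher in null liver (log2 fold change 0.52, adjusted p = 0.00872, and 0.49, adjusted p = 0.00839, edgeR). This replacement was not run in lung, so the lung separations were not checked in this way. Without null lung 1, *Cdh5* was called higher in null lung (0.59, adjusted p = 0.0182, edgeR) and *Pecam1* was not (0.17, adjusted p = 0.253). Of the 18 markers, 4 were then called higher and 2 lower, beside 18.0% and 19.0% of all genes.

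**Figure D5:**
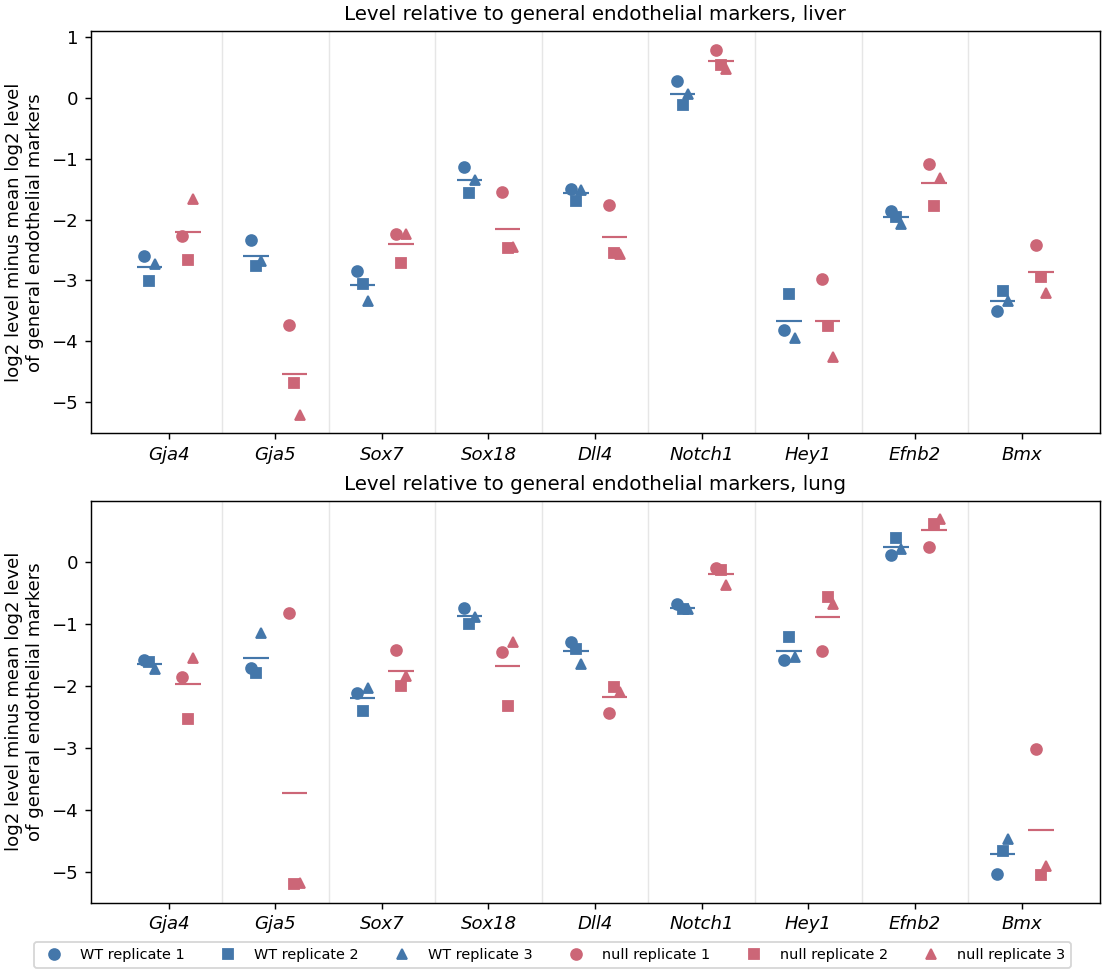
Log2 level of each of the 9 genes minus the mean log2 level of 18 endothelial markers, in liver (top) and lung (bottom), with WT in blue, null in red and the replicate number as the symbol. In both tissues all null points lie below WT for *Dll4* and above WT for *Notch1* and *Sox7*.

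Other genes of the same pathways moved in both directions. Their counts in liver stand beside 13.5% of all genes called higher and 13.4% called lower. Some of them stand in more than 1 list. Of 18 other arterial genes tested in liver, 2 were called higher and 3 lower (median log2 fold change 0.30, against 0.02 for all genes). Among these, *Depp1*, listed in the files as 8430408G22Rik, rose from 64.7 ± 26.8 to 247 ± 79.5 CPM and *Mecom*, a transcription factor, fell from 2.71 ± 0.296 to 1.28 ± 0.159 CPM (adjusted p = 0.00954 and 0.0128, edgeR). Which cells of the bulk liver carried these differences was not tested. Of 30 other Notch pathway genes, 6 were higher and 3 lower. The coactivator *Maml3* rose by 0.99 (adjusted p = 0.00442) and *Pofut1*, which adds fucose to Notch receptors, fell by 0.48 on the log2 scale (adjusted p = 0.0131). Of 14 VEGF and angiopoietin genes, 3 were higher and 1 lower, with the VEGF receptor *Flt1* at 0.75 (adjusted p = 0.0281) and the coreceptor *Nrp1* at -0.67 (adjusted p = 0.00517).

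Of 16 other ephrin and Eph genes tested in liver, 1 was higher (*Efna1*, 1.04, adjusted p = 0.0105) and 2 were lower, led by the receptor *Epha7* (-1.82, adjusted p = 0.00292). Of 7 other connexins, the hepatocyte connexin *Gjb1* was higher (0.40, adjusted p = 0.0445) and *Gjc3* lower (-1.0, adjusted p = 0.0210). Of 7 other Sox genes, *Sox5* was called, higher in null (1.03, adjusted p = 0.00809, edgeR). Of 6 flow-responsive endothelial genes, 4 were higher and none lower, with a median of 1.39. *Nos3* (0.20, adjusted p = 0.730, edgeR) and *Cyp1b1* (0.72, adjusted p = 0.280) were not called. Which liver cells gave the reads of this list was not tested, nor was blood flow. *Klf4*, a transcription factor induced by shear stress, was at 4.09, 4.83 and 4.51 CPM in WT and at 20.4, 7.90 and 12.7 CPM in null liver. All null livers were above WT (log2 fold change 1.61, SE 0.32, adjusted p = 0.0118, edgeR). Of the 18 endothelial markers themselves, 3 were higher and 1 lower in null liver (median 0.08). Without null liver 1, 3 arterial genes were higher and 4 lower, 3 Notch genes were higher and 3 lower, and 4 flow-responsive genes were still higher.

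In lung, none of these lists had a called gene with 6 libraries (edgeR), while 8 of 18 other arterial, 7 of 30 Notch, 5 of 14 VEGF, 2 of 18 ephrin, 2 of 12 connexin, 2 of 11 Sox and 3 of 6 flow-responsive genes had an unadjusted p under 0.05, beside 25.0% of all genes. The counts changed without null lung 1, where 18.0% of all genes were called higher and 19.0% lower. Of the other arterial genes, 3 were then higher and 7 lower, and of the Notch genes 4 were higher and 6 lower. The Notch target *Heyl*, of both lists, fell from 97.5 ± 2.35 (SD, n = 3) to 21.3 ± 6.93 CPM (SD, n = 2, log2 fold change -2.19, adjusted p = 0.000665, edgeR). *Heyl* is known from smooth muscle and pericytes, whose 10 markers had 5 lower and 1 higher in the same fit. Whether the *Heyl* difference is related to those cells was not tested. *Edn1*, which encodes the vasoconstrictor endothelin 1, rose from 35.2 ± 15.6 to 129 ± 55.3 CPM (adjusted p = 0.00699), and the receptor *Notch2* rose by 1.2 (adjusted p = 0.00120).

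Of the VEGF genes, 2 were higher and 5 lower in lung without null lung 1, with *Angpt2*, a ligand of the TIE2 receptor, at 1.18 (adjusted p = 0.00114, edgeR) and *Pgf* at -1.86 (adjusted p = 0.00180). Of the ephrin genes, 4 were higher and 1 lower, with *Efna3* at 1.01 (adjusted p = 0.0242) and *Efna5* at -0.52 (adjusted p = 0.0436). Of the connexins, none was higher and 5 of 12 were lower, with a median of -0.63 against -0.01 for all genes, of which 19.0% were called lower. *Gjb5*, an epithelial connexin, was the lowest of these at -2.70 (adjusted p = 0.00258). Of the Sox genes, 2 were higher and 1 lower. Of the flow-responsive genes, 2 were higher, *Klf4* among them (0.66, adjusted p = 0.0195), and 2 were lower, led by *Thbd*, which encodes thrombomodulin (-1.16, adjusted p = 0.000733).

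*Gja5* lies at chr3:96904693-97077416 on the plus strand of GRCm38, 3.48 Mb from *Man1a2* on the same chromosome. The gene model overlaps *Gpr89* on the opposite strand, and whether counting used the strand was not given in the sources used here. *Gpr89* ranged from 16.3 to 18.2 CPM in WT livers and from 17.8 to 19.1 CPM in null livers (log2 fold change 0.11, adjusted p = 0.433, edgeR), and at 10.2 CPM in the WT lungs and 8.36 to 12.3 CPM in the null lungs. The *Gpr89* ranges of WT and null overlapped in both tissues. Within 500 kb of *Gja5*, 26 other genes had counts. Of 18 tested in liver, 2 were called higher and 3 lower, near the 26.9% of all genes called there. Of 20 tested in lung, 0 were called with 6 libraries, and 4 higher and 4 lower without null lung 1, near the 37.0% of all genes called in that fit. *Txnip*, which encodes a thioredoxin-binding protein, was the highest of them in liver, with 423, 286 and 539 CPM in the WT livers against 1646, 1394 and 2808 CPM in the null ones (log2 fold change 2.23, adjusted p = 0.00463, edgeR).

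Genes with the profile most like *Gja5* were ranked by Pearson correlation of log2 level over the 12 libraries, after the mean of each tissue was removed, among 12304 genes. The first 5 were *Gm9776*, *Sike1*, *Msl3*, *Msto1* and *Zfp882*, each at r = 0.98. *Sike1* and *Msto1* lie on chromosome 3, as do *Gja5* and *Man1a2*, and the other 3 on chromosomes 13, X and 8. *Msto1* was at 10.6, 11.3 and 11.6 CPM in WT and at 8.03, 6.94 and 5.99 CPM in null liver. In lung it was at 18.1, 16.8 and 19.8 CPM in WT and at 15.6, 5.93 and 4.63 CPM in null. As with *Gja5*, the libraries labelled null 1 were the nearest to WT in both tissues.

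The other arterial genes were not near the top of that ranking. *Sox18* (r = 0.53) was at place 2768 and *Dll4* (0.31) at place 4168. *Bmx* (0.05), *Gja4* (-0.17), *Hey1* (-0.47), *Efnb2* (-0.56), *Sox7* (-0.60) and *Notch1* (-0.69) followed in that order. Without null lung 1, *Sox18* (0.84) and *Dll4* (0.83) moved up to places 1346 and 1518, and *Gja4* stayed near 0 (-0.08). The first 5 were then *Gm9776*, *Pds5b*, *Mphosph9*, *Pigh* and *Tcta*. These libraries share the genotype contrast on which *Gja5* was chosen, so the values describe the profiles and are not tests.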

How the data were processed

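RNA from the liver and lung of newborn WT and null pups was made into strand-specific polyadenylated libraries and sequenced as pairs on an Illumina NextSeq 500. The authors deposited 1 table of unnormalized read counts per library, listed by gene symbol, with 0 other columns of per-sample values. The submitters' processing notes name FastQC, STAR 2.5.2a, DESeq2 and mm10. The counting program, the annotation and the use of strand were not given in the sources used here, so reads of overlapping genes can be counted in more than 1 way. Positions and exon lengths came from GENCODE M21 (GRCm38) and upstream sequences from RefSeq.

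Samples were grouped by their labels. Tests used edgeR 4.0.16 in R 4.3.3, with filterByExpr, TMM scaling within the libraries compared, quasi-likelihood tests and Benjamini-Hochberg adjustment over all genes tested. A gene was called when its adjusted p was under 0.05 and its fold change 1.2 or more. Standard errors were obtained by dividing the log2 fold change by the root of the F statistic. The median log2 fold change of all genes was 0.02 in liver and 0.06 in lung (-0.01 without null lung 1). Upper-quartile factors moved it to -0.09 and 0.03, and it was 0.04 and 0.12 over the genes DESeq2 tested. Values relative to endothelial markers used log2(CPM + 0.5) and two-sided exact permutation tests. Fits were tested on simulated data with log2 fold changes of 2. They recovered 87.5% of the changed genes in liver, 98.5% between WT tissues, 42.9% in lung and 48.2% for the difference between tissues. A gene not called in the last 2 fits may therefore still differ. In liver the tested arterial genes had smaller log2 fold changes, from -0.79 for *Sox18* to 0.89 for *Sox7*. Recovery of changes smaller than 2 was not simulated, so an arterial gene not called in liver may also still differ.

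The members, marker lists and pathway lists were chosen with earlier results of these data known. Named genes were the members, the called gene with the largest rise and fall in each list and tissue, the 5 genes most like *Gja5* and its neighbours within 500 kb. Replicate numbers come from the labels. Deviations of liver and lung with the same number and genotype correlated at 0.184 to 0.468 and sex markers matched, so a pup block was fitted for the difference between tissues. WT and null of a number are different animals. Alternatives were DESeq2 1.42.0, other size factors, filters of 10 counts per library or of 1 count in all, no minimum fold, all 12 libraries in 1 fit, the replicate block and leaving out each library. Those that combine leaving out null lung 1 with another change were chosen after seeing the data. Depth was 26759463 to 42914295 counted reads per library, and counting error is largest for low values such as *Gja5* in null liver, at 5 to 36 reads.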

Additional observations from a re-analysis of the deposited data

How the results depend on the processing

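Called genes among the 8 tested in liver numbered 3, against 1 with a minimum of 1 count in all, 5 with DESeq2, 0 with all 12 libraries in 1 fit, and 0 to 3 when single libraries were left out. In lung they numbered 0, against 1 with DESeq2, 1 with all 12 libraries, 5 with DESeq2 and null lung 1 left out, and 0 to 5 when single libraries were left out. For the difference between tissues, 0 became 2 with the pup block and without null lung 1. Relative to endothelial markers in liver, 4 (41.5% of all genes) became 2 (66.4%) with *Pecam1* and *Cdh5*, both called higher in null liver. *Dll4* and *Sox18* stayed apart, and *Notch1*, *Sox7* and *Efnb2* did not. All 9 genes stayed higher in WT lung than in WT liver under every alternative run. WT and null samples shared only a number, with correlations of -0.043 to 0.143, and the replicate block left the counts at 3 in liver and 0 in lung, with *Sox18* (adjusted p = 0.0303) and *Dll4* (0.0496) called in place of *Sox7* (0.0690) and *Efnb2* (0.0514) by edgeR in liver. Some uncalled values near 0 changed sign. In lung, *Sox7* was -0.01 with the replicate block, -0.02 with upper-quartile factors and -0.10 to 0.26 with single libraries left out, and *Efnb2* was -0.15, -0.03 and -0.23 to 0.42. With single libraries left out, *Hey1* ran from -0.30 to 0.42 in liver and from -0.01 to 0.81 in lung, *Notch1* from -0.12 to 0.51 and *Bmx* from -0.29 to 0.09 in lung. The difference between tissues without null lung 1 and null liver 1 was -0.31 for *Gja5*, 0.23 for *Sox18* and 0.32 for *Dll4*, and with the pup block and without null lung 1 it was -0.28, 0.16 and 0.34. With single libraries left out it ran from -1.21 to 1.56 for *Gja5*, -0.64 to 0.10 for *Dll4* and -0.16 to 0.70 for *Hey1*. The causes of these changes were not tested.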

Other observations

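Markers of other endothelial types were counted in the same fits (edgeR). Other cells of bulk tissue can express some of them, and which cells gave the reads was not tested. In liver, 2 of 6 venous markers were called higher and 1 lower in null, 2 of 9 sinusoidal markers were lower, 2 of 5 lymphatic markers were higher and 1 lower, and 1 of 5 lung capillary markers was higher, beside 26.9% of all genes called. Without null liver 1, 2 venous markers were higher and 0 lower, 1 lymphatic marker was higher and 1 lower, and 1 capillary marker was higher and 1 lower, beside 23.8% of all genes called. The sinusoidal count was the same. Lymphatic markers called with all livers were *Reln* and *Mmrn1*, higher, and *Prox1*, lower. Those called in lung without null lung 1 were *Reln*, higher, and *Pdpn*, lower. In lung, 0 of 6 venous and 0 of 6 capillary markers were called with all libraries and without null lung 1. Without null lung 1, 1 of 7 sinusoidal markers was higher and 2 were lower in lung, and 1 of 5 lymphatic markers was higher and 1 lower, beside 37.0% of all genes called. In both venous sets in lung, 1 of 6 markers had an unadjusted p under 0.05, and in both capillary sets 2 of 6, beside 25.0% of all genes with 6 libraries and 48.1% without null lung 1. Among 7 leukocyte markers in lung, 0 were called with 6 libraries, with 1 at an unadjusted p under 0.05, and 4 were higher without null lung 1, where 18.0% of all genes were called higher.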
